A study of Mus musculus with 14 samples.

Results

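The collagen genes were taken as every symbol of the form Col, number, a, number in the count tables, which gave 44 of the 50508 gene symbols listed in each table. They comprised 11 fibrillar chains, 6 basement membrane chains of type IV and 27 other chains. All 44 had coordinates in the mouse annotation GENCODE M21. The data were 10 bulk RNA libraries from sorted mouse T cells in 5 groups of 2 libraries. From the thymus of C57BL/6 mice came CD8SP cells, the conventional CD8 single-positive thymocytes, and ILTCkP cells, the labelled progenitors of killer innate-like T cells. The other 6 libraries, here called the tumour libraries, came from mice labelled retrogenic and held killer innate-like T cells sorted as NK1.1- ILTCk or as NK1.1+ ILTCk, and conventional PD1+ Tconv cells. The labels give a gate of CD45+ TCRβ+ CD8α+ cells without TCRγδ or CD4 for the NK1.1+ and PD1+ sorts, taken from tumours after digestion with collagenase. For the NK1.1- sort the tissue and gate, and for all mice the receptor and age, were not stated in the labels. The titles name the NK1.1- cells ILTCk while another label field names them ILTCkP, and the titles were followed here. Their libraries share a count table with the tumour sorts and are counted with them. The labels do not say whether the libraries of a group came from different animals, and the p-values cover only the variation between libraries, which may be technical.

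Collagens are the main structural proteins of the extracellular matrix and are built from 3 chains wound into a helix. Fibrillar types I, III and V form the fibres of connective tissue and are made chiefly by fibroblasts and related mesenchymal cells, while type IV forms the sheet of the basement membrane under epithelium and around vessels. Type IX and its relatives sit on the surface of fibrils, and others anchor epithelia or span membranes. T cells are not known as a main source of matrix collagens. In bulk libraries, fewer cells of a type and less RNA per cell cannot be told apart.

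The promoters of Col4a1, Col4a2, Col4a5 and Col4a6, the most abundant of the type IV genes in the tumour libraries, are shown because these genes lie in head-to-head pairs and their levels are compared as pairs. The sequences are from RefSeq on GRCm38.p6 and run from 250 bases before to 50 bases after each start site. Capitals mark the letters CCAAT or GGGCGG on either strand.
Col4a1: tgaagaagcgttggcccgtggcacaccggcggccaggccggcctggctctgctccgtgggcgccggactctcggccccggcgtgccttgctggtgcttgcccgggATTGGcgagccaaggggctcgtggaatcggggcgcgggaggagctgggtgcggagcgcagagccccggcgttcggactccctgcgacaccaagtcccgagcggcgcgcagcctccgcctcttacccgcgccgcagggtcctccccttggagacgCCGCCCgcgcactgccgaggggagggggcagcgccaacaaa
Col4a2: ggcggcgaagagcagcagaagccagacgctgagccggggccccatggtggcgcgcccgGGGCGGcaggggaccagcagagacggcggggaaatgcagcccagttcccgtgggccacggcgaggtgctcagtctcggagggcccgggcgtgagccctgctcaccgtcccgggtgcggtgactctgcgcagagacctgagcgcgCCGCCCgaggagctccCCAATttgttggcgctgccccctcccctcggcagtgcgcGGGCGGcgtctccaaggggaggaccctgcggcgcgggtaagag
Col4a5: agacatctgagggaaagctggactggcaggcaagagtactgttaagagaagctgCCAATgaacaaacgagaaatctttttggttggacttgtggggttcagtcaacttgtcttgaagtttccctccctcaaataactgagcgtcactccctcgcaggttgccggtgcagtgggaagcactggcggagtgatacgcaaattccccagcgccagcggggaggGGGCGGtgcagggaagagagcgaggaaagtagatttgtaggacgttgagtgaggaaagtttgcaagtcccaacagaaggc
Col4a6: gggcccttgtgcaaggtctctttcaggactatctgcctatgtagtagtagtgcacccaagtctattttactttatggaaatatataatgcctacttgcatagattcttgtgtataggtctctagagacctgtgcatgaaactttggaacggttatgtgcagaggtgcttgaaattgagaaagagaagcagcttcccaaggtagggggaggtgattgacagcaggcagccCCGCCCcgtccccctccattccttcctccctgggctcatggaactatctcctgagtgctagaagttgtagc
Col4a1 (chr8:11312777-11313076, minus strand) and Col4a2 (chr8:11312555-11312854, plus strand) are read away from each other, and their windows share 78 bases. Col4a6 (chrX:141474027-141474326, minus strand) and Col4a5 (chrX:141475169-141475468, plus strand) have start sites 1343 bases apart and share none. The letters CCAAT occurred in the windows of Col4a1, Col4a2 and Col4a5, and the letters GGGCGG in all 4. A promoter entry was found for 35 of the 44 genes, with 38 windows in all. GGGCGG or its complement was present in 23 of those 38 windows (60.5%) and in 35.7% of the 32851 promoters of the table. CCAAT was present in 13 of 38 windows against 37.4% of all promoters, and TATAAA, also searched on both strands, in 5 of 38 against 13.6%. None of these motifs overlaps another in its letters, and a match is a description of the sequence only.

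Collagen RNA was present in every tumour library and low in every thymic library. Levels are given as CPM, the counts of a gene per 1000000 counts of its library. Summed over the 44 genes, the thymic libraries held 29.6 and 32.9 CPM in CD8SP and 36.0 and 16.6 CPM in ILTCkP. The tumour libraries held 978 and 418 CPM in the NK1.1- group, 357 and 229 CPM in NK1.1+ ILTCk and 223 and 505 CPM in PD1+ Tconv, in the order of replicates 1 and 2. The lowest tumour library was above the highest thymic one. Both NK1.1- libraries were above both NK1.1+ libraries, and the PD1+ libraries overlapped each of these groups. Thymic and tumour libraries come from separate tables that share no sample, so they are compared by level only. Between 18 and 22 of the 44 genes had a count in a thymic library and between 36 and 43 in a tumour library. Library totals ran from 16530085 to 32097301 counts, so 3 counts correspond to about 0.1 to 0.2 CPM.

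**Figure D1:**
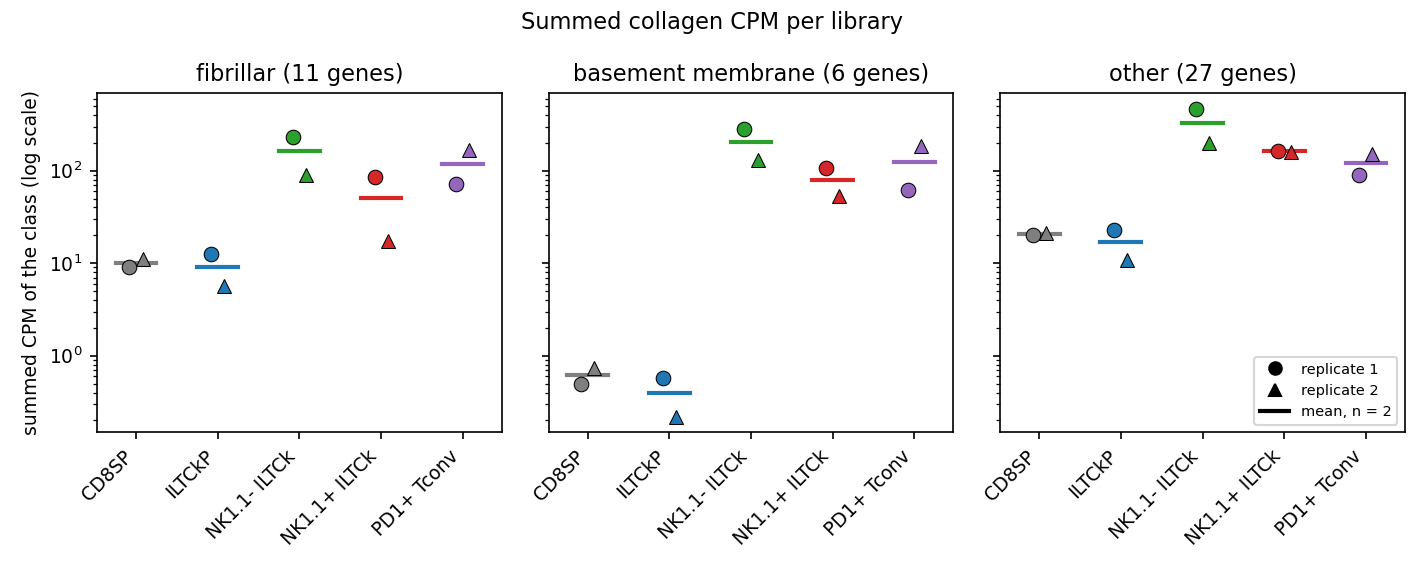
Summed CPM of the fibrillar, basement membrane and other collagens (log axis) for each library, with circles for replicate 1, triangles for replicate 2 and a bar at the mean of 2. Basement membrane collagens lie below 1 CPM in all 4 thymic libraries and between 52.8 and 279 CPM in the 6 tumour libraries.

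The classes differed in how far they separated the thymic from the tumour libraries. Basement membrane collagens summed to 0.613 ± 0.166 CPM (SD, n = 2) in CD8SP and 0.397 ± 0.252 CPM in ILTCkP, and to 204 ± 106 CPM in NK1.1- ILTCk, 80.2 ± 38.6 CPM in NK1.1+ ILTCk and 125 ± 88.2 CPM in PD1+ Tconv. Fibrillar collagens summed to 10.05 ± 1.46 and 9.16 ± 4.94 CPM in CD8SP and ILTCkP, and to 162 ± 101, 51.0 ± 47.6 and 119 ± 67.8 CPM in the tumour groups in the same order. The lowest tumour value for fibrillar collagens, 17.3 CPM in NK1.1+ ILTCk replicate 2, was near the highest thymic one, 12.6 CPM. The other collagens summed to 20.6 ± 0.714 and 16.8 ± 8.56 CPM in the thymus, and to 332 ± 189, 162 ± 4.41 and 119.8 ± 43.0 CPM in the tumour groups. In each class both NK1.1- libraries were above both NK1.1+ libraries. The PD1+ libraries overlapped the others in the fibrillar and basement membrane sums and were below them in the third class. With TMM-scaled library sizes, PD1+ Tconv replicate 2 was at 201 CPM in the third class, above both NK1.1+ libraries (146 and 179) and level with NK1.1- ILTCk replicate 2 (200.2). Its TMM factor of 0.7475 was the lowest of the 6.

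**Figure D2:**
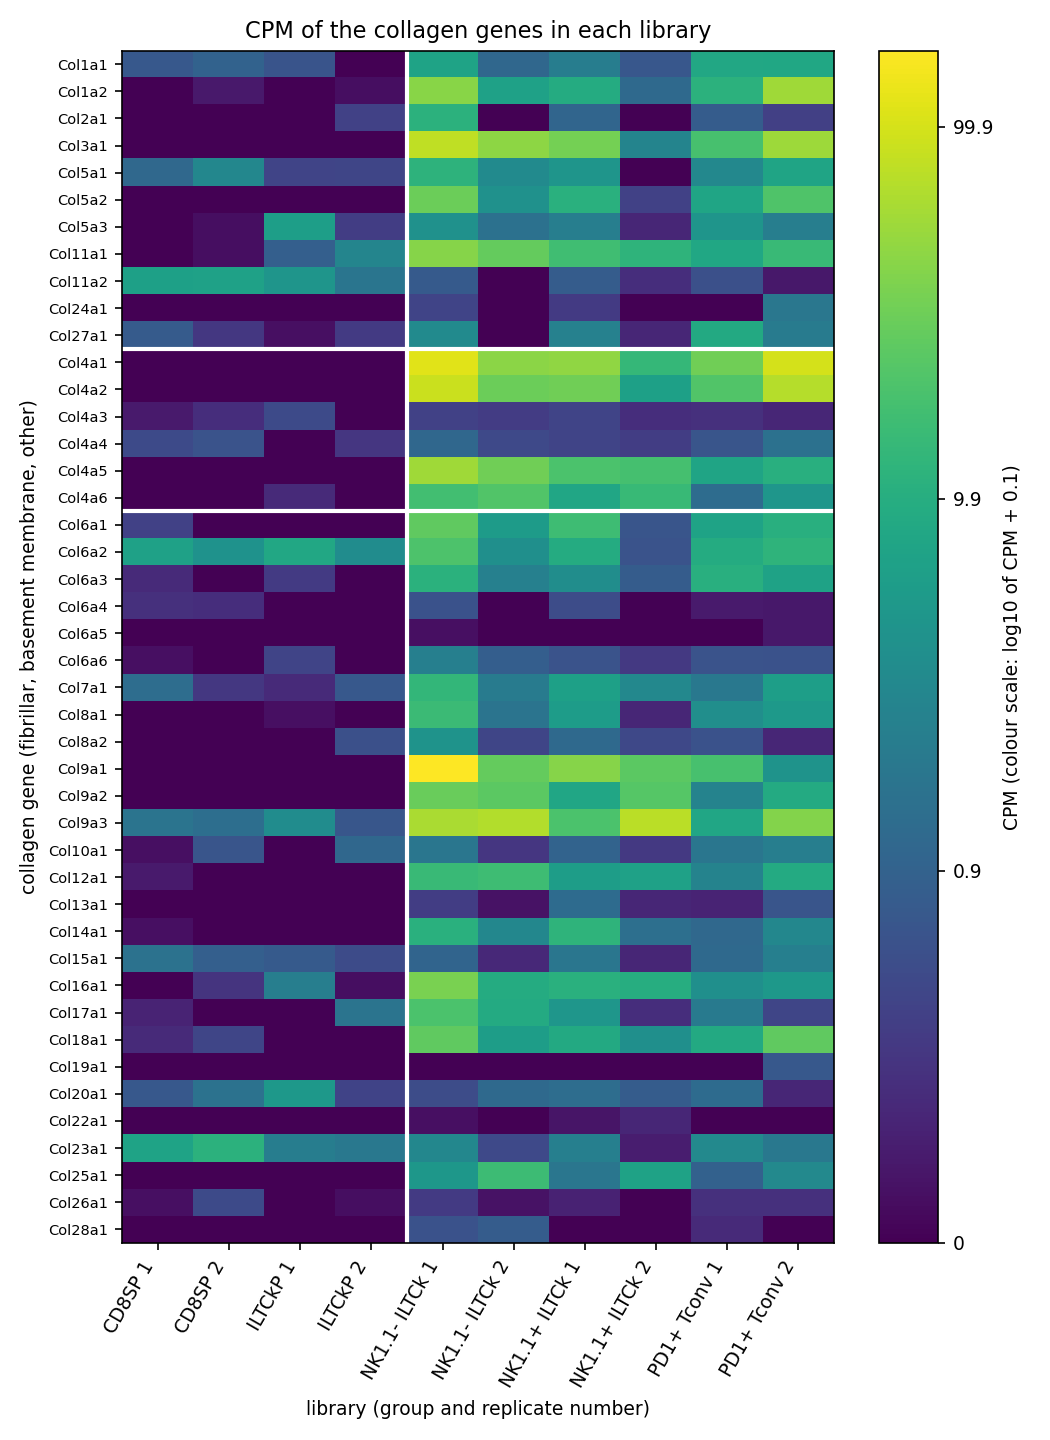
CPM of each collagen gene (rows, by class) in the 10 libraries (columns, by group and replicate number), on a log colour scale. White lines separate the classes, and the thymic from the tumour libraries. Col4a1, Col4a2, Col3a1 and Col9a1 have 0 counts in the 4 thymic libraries and are among the brightest rows in the tumour libraries.

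A few chains carried most of the tumour signal. By mean CPM over the 6 tumour libraries the order was Col4a1 (58.8), Col9a1 (46.3), Col9a3 (45.7), Col4a2 (41.5), Col3a1 (39.2) and Col4a5 (24.1). Neighbours in this order do not differ beyond their spread across libraries. The place of Col9a1 rests on NK1.1- ILTCk replicate 1: without that library its mean was 23.5 CPM, below Col4a1 (47.5), Col9a3 (42.2), Col4a2 (32.0) and Col3a1 (31.2). Per kilobase of exon the order began with Col9a3 (11.9 CPM per kb), Col9a1 (9.13), Col4a1 (7.88) and Col4a2 (6.27). The exon length joins all annotated transcripts of a gene and can exceed the one expressed, so genes are only roughly comparable. Col9a1 again rested on NK1.1- ILTCk replicate 1, at 31.6 CPM per kb against 0.859 to 8.37 in the other tumour libraries. Type IX collagen is best known from cartilage. In PD1+ Tconv its chains were lower than these means, at 11.6 ± 10.2 CPM (SD, n = 2) for Col9a1 and 24.4 ± 23.6 CPM for Col9a3, beside 65.8 ± 48.1 CPM for Col4a1, 45.8 ± 34.8 CPM for Col4a2 and 33.4 ± 31.0 CPM for Col1a2.

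Among fibrillar chains, Col3a1 encodes the single chain of type III collagen, found in soft tissue and vessel walls. Its level was 79.3 and 46.0 CPM in NK1.1- ILTCk, 34.6 and 2.67 CPM in NK1.1+ ILTCk and 18.5 and 54.4 CPM in PD1+ Tconv. It was high in NK1.1- ILTCk replicate 1 and PD1+ Tconv replicate 2 and lowest in NK1.1+ ILTCk replicate 2. Col1a2, the second chain of type I collagen, was at 42.5 and 6.68, at 9.33 and 1.16, and at 11.5 and 55.3 CPM in the same groups. Its high and low libraries were the same ones. Col5a2, a chain of type V collagen, which sets the width of fibrils, was at 30.2 and 4.06, at 10.6 and 0.319, and at 7.55 and 21.05 CPM. For each of these 3 genes the PD1+ libraries overlapped the NK1.1- libraries.

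Col1a1, the main chain of type I collagen, departed from its partner. It was at 7.20 and 1.08 CPM in NK1.1- ILTCk, 2.17 and 0.639 CPM in NK1.1+ ILTCk and 8.29 and 7.99 CPM in PD1+ Tconv. By CPM the 2 PD1+ libraries were nearly equal and were the highest of the 6. On the TMM scale they were at 7.42 and 10.7, and still the highest. As a share of the counts of Col1a1 and Col1a2 together, Col1a1 made up 14.5% and 14.0% in NK1.1- ILTCk, 18.9% and 35.6% in the NK1.1+ libraries, and 41.9% (exact Clopper-Pearson 95% interval 37.8 to 46.1) and 12.6% (10.7 to 14.8) in PD1+ Tconv. The protein contains 2 Col1a1 chains for each Col1a2 chain, yet Col1a2 counts exceeded Col1a1 counts in each tumour library. The GENCODE exon length is 12426 bases for Col1a2 and 6563 for Col1a1, and the intervals cover counting error only. These lengths join all annotated transcripts and can exceed the one expressed, so the order of the chains per kilobase depends on them. Per kilobase of exon, Col1a1 was above Col1a2 in PD1+ Tconv replicate 1 (1.26 against 0.925 CPM per kb), with 233 against 323 counts. The chains were about level in NK1.1+ ILTCk replicate 2 (0.0973 against 0.0931), and Col1a2 stayed above Col1a1 in the other tumour libraries. Col11a1, a fibrillar chain of type XI collagen, which is laid down with types II and V, was at 42.4 and 27.6 CPM in NK1.1- ILTCk, 16.6 and 12.1 CPM in the NK1.1+ and 7.94 and 14.9 CPM in the PD1+ libraries. Both NK1.1- libraries were above all 4 others.

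The type IV chains are given by their genomic pairs, which differed in how closely their chains went together. Col4a1 and Col4a2, the chains of the common basement membrane network, were at 115 and 44.7 CPM and at 89.0 and 30.2 CPM in NK1.1- ILTCk. Among the NK1.1+ libraries they were at 47.5 and 13.7 CPM and at 32.0 and 6.46 CPM, and in PD1+ Tconv at 31.8 and 99.9 CPM and at 21.2 and 70.4 CPM. Both were lowest in NK1.1+ ILTCk replicate 2. By CPM both were highest in NK1.1- ILTCk replicate 1, but on the TMM scale PD1+ Tconv replicate 2 was highest, at 134 against 95.5 for Col4a1 and 94.3 against 73.7 for Col4a2. Although the level of Col4a1 spanned 13.7 to 115 CPM, its share of the pair's counts stayed between 56.4% and 67.9%, and between 56.4% and 60.0% without NK1.1+ ILTCk replicate 2. Col4a5 and Col4a6, the X-linked pair found in specialised basement membranes such as those of skin and breast epithelium, followed another order. Col4a5 was at 56.5 and 32.5 CPM in NK1.1- ILTCk, 19.5 and 18.1 CPM in NK1.1+ ILTCk and 7.30 and 10.5 CPM in PD1+ Tconv. Col4a6 was at 17.1 and 21.4, at 7.76 and 14.2, and at 1.25 and 4.72 CPM. Both PD1+ libraries were the lowest of the 6 for each of these genes, whereas PD1+ Tconv replicate 2 was the highest or the second highest for Col4a1 and Col4a2, by scale. The remaining pair, Col4a3 and Col4a4, known from kidney and lung, stayed at or below 1.45 CPM in each tumour library. Col4a4 was highest in PD1+ Tconv replicate 2, where Col4a3 was lowest (0.121 CPM, under 3 counts).

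**Figure D3:**
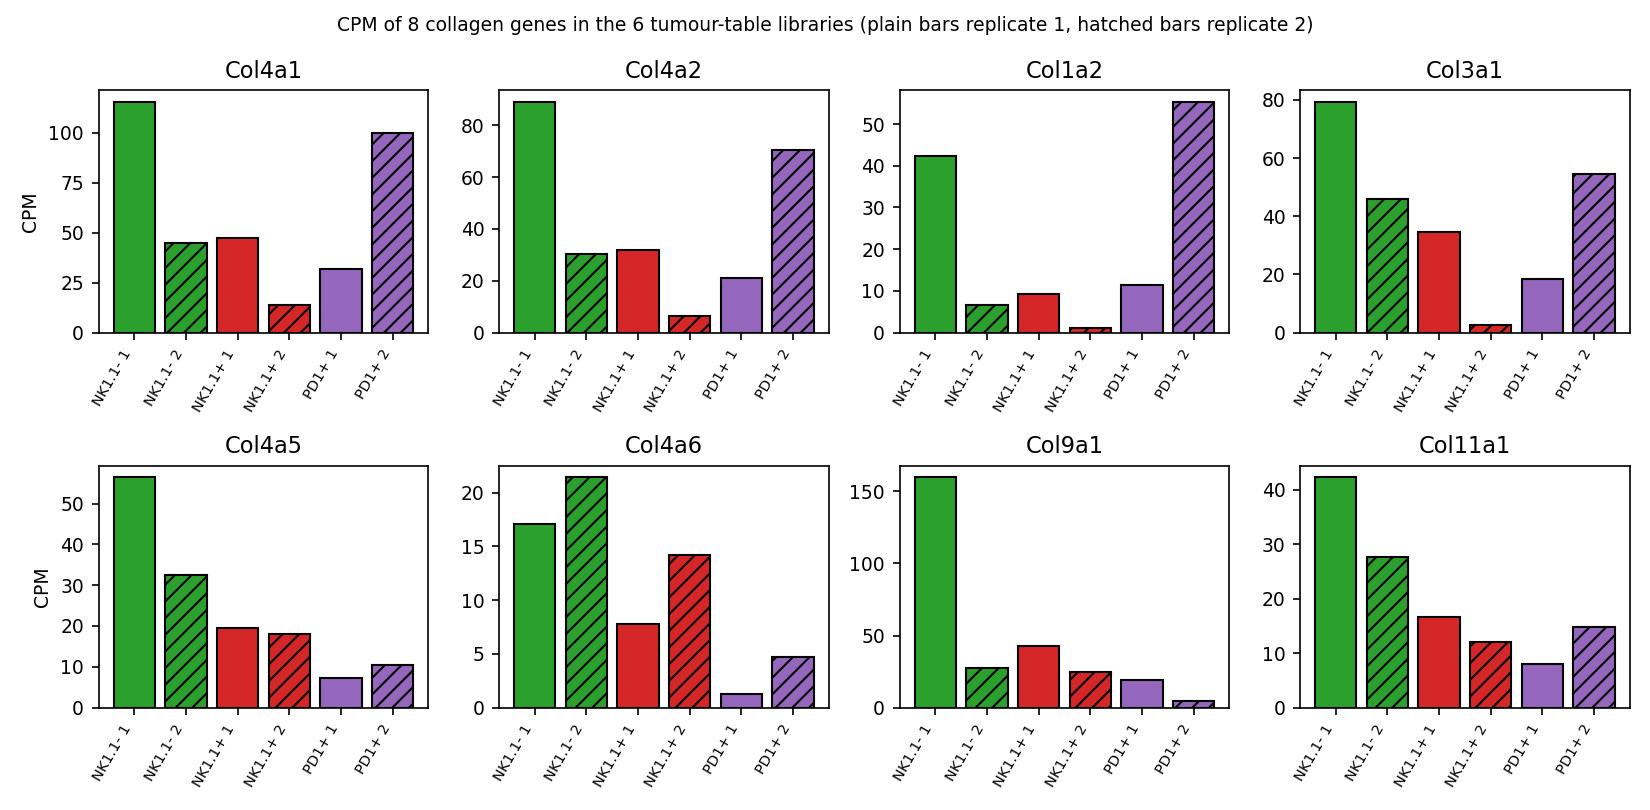
CPM of 8 collagen genes in the 6 tumour libraries, with plain bars for replicate 1 and hatched bars for replicate 2; axes start at 0 and differ between genes. Col4a1, Col4a2, Col1a2 and Col3a1 have high bars in NK1.1- ILTCk replicate 1 and PD1+ Tconv replicate 2, while Col4a5, Col4a6 and Col9a1 have their lowest bars in the PD1+ Tconv libraries.

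Of the other collagens, the 3 type IX chains were the most abundant. Col9a1 was at 159.9 and 27.5 CPM in NK1.1- ILTCk, 42.4 and 24.6 CPM in NK1.1+ ILTCk and 18.8 and 4.36 CPM in PD1+ Tconv. Col9a3 was at 63.0 and 67.3 CPM, at 20.0 and 75.2 CPM and at 7.69 and 41.0 CPM, and Col9a2 at 30.0 and 24.8, at 7.86 and 22.8 and at 2.60 and 9.07 CPM. Within NK1.1+ ILTCk and PD1+ Tconv, Col9a1 was higher in replicate 1 while Col9a2 and Col9a3 were higher in replicate 2. Col9a3 shares 234 bases of exon (6.07% of its length) with Tcfl5, and whether counting used strand is not given in the sources used here. Type VI collagen, a network of beaded filaments around many cells, had Col6a1 at 26.7 and 5.64, at 16.0 and 0.599, and at 7.12 and 10.4 CPM, with Col6a2 at 20.1 and 3.84, at 9.33 and 0.559, and at 9.29 and 12.0 CPM. Both were lowest in NK1.1+ ILTCk replicate 2. Col18a1, the basement membrane collagen whose end fragment is endostatin, was at 26.2 and 5.91, at 8.62 and 3.79, and at 8.86 and 26.0 CPM. Its 2 high libraries were those of Col4a1. Col15a1, its relative in vessel and muscle basement membranes, stayed between 0.12 and 2.30 CPM. Of 40 genes with at least 20 tumour counts, 21 were highest in NK1.1- ILTCk replicate 1 and 18 were lowest in NK1.1+ ILTCk replicate 2. With TMM-scaled CPM, added after the data were seen, these counts were 13 and 17, and 12 genes were highest in PD1+ Tconv replicate 2.

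In 2 chain pairs the share followed the replicate number in each tumour group. Col9a1 made up 71.7%, 68.0% and 71.0% of the counts of Col9a1 and Col9a3 in the libraries numbered 1, for the NK1.1- and NK1.1+ killer cells and the PD1+ cells in turn. In the libraries numbered 2 the share was 29.0%, 24.6% and 9.60%. The share of Col4a5 in Col4a5 and Col4a6 was also higher in replicate 1 of each group, at 76.8% against 60.3%, 71.5% against 56.0% and 85.4% against 69.0%. These 2 ratios were chosen after their values were seen. Krt5, a basal epithelial keratin, was at 118 and 45.8, at 46.8 and 1.28, and at 16.6 and 1.69 CPM. Csn2, which encodes beta-casein of milk, was at 239 and 1.81, at 19.7 and 1.16, and at 38.5 and 1.88 CPM. Both were higher in replicate 1 of each group, as were Csn3, Wap and Cdh1 of the mammary epithelial list. Other genes of that list went the other way: Epcam was at 873 and 1094, at 472 and 524, and at 189 and 374 CPM, and Epcam, Krt18 and Krt14 were higher in replicate 2 of each group. Krt8 and Krt19 followed neither order. The part of any of these genes in the ratios was not tested. What a replicate number stands for is not given in the sources used here.

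**Figure D4:**
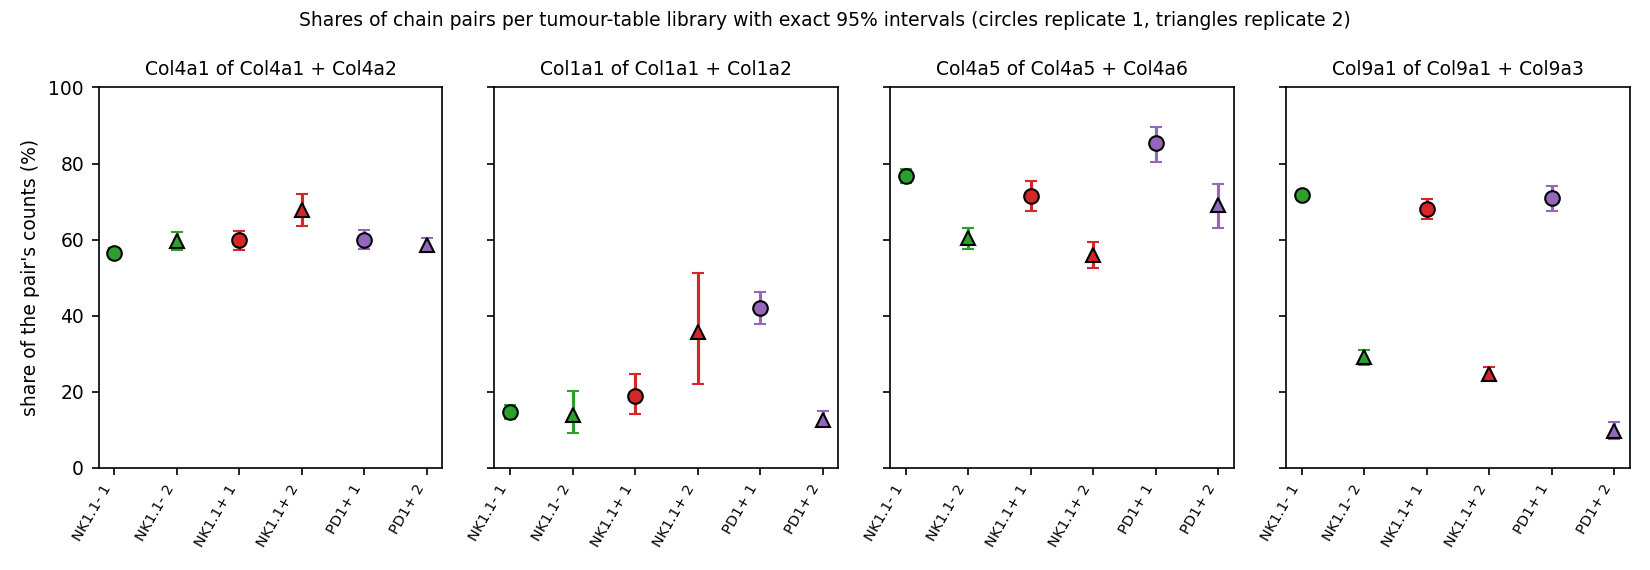
Share of the first chain in the counts of a chain pair (%, with exact 95% intervals) in the 6 tumour libraries, circles for replicate 1 and triangles for replicate 2. The Col4a1 share lies between 56.4% and 67.9%, while the Col9a1 share is 68.0% to 71.7% in the libraries numbered 1 and 9.60% to 29.0% in those numbered 2.

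In the thymus the collagen signal came from different chains. Col3a1, Col4a1, Col4a2, Col4a5, Col5a2, Col9a1 and Col9a2 had 0 counts in all 4 thymic libraries. The highest members were Col6a2, Col23a1, Col11a2 and Col20a1. Col6a2 had 192 and 126 counts in CD8SP and 231 and 114 in ILTCkP, or 6.79, 4.18, 8.30 and 3.55 CPM. Its partner Col6a1 had 9, 0, 0 and 0 counts, so Col6a1 made up at most 4.48% of the pair in the thymus and between 43.4% and 63.1% in the tumour libraries. Col23a1, a membrane-spanning collagen, was at 7.11 and 11.3 CPM in CD8SP and 2.19 and 1.84 CPM in ILTCkP. Col11a2, a fibrillar chain, was at 6.51 and 6.80 CPM and at 4.64 and 1.68 CPM, and made up 72.2% and 61.4% of fibrillar counts in CD8SP. It was at or below 0.756 CPM in each tumour library. Col20a1, a fibril-associated chain, was at 0.672 and 1.53 CPM in CD8SP and at 5.07 and 0.343 CPM in ILTCkP. Col11a1 had 0 and 1 counts in CD8SP and 23 and 88 in ILTCkP. Col5a3, named after its values were seen, had 173 counts in ILTCkP replicate 1 and at most 9 in the others.

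Conventional and progenitor thymocytes were compared with edgeR's quasi-likelihood test on 14634 genes. The filter on low counts kept 12 of the 44 collagen genes, and none passed an adjusted p of 0.05, against 4.71% of all genes tested. At an unadjusted p under 0.05 it gave 3 of 12, against 22.1% of all genes. Col11a1 was higher in ILTCkP by 6.46 ± 1.33 (log2, SE, edgeR adjusted p = 0.0581); with 0 and 1 counts in CD8SP, the size of this value depends on the prior count of the fit. Col23a1 was lower, with a log2 fold change of -2.07 ± 0.47 (edgeR adjusted p = 0.0730), and its 2 groups did not overlap. DESeq2, the alternative count test, called both, with log2 fold changes of 6.79 (adjusted p = 0.00489) and -2.06 (adjusted p = 0.00404), where 13.6% of all genes were called. With either ILTCkP library left out edgeR called both, beside 17.9% and 44.8% of all genes. Without CD8SP replicate 1 it called neither of them and without CD8SP replicate 2 Col11a1 but not Col23a1, beside 4.25% and 3.78% of all genes. A group left with 1 library is assumed to vary like the other. The 2 groups did not overlap for 1 member that was higher in ILTCkP, against 25.6% of all genes, and for 6 that were lower, against 33.1%.

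Between the NK1.1+ killer cells and the PD1+ conventional cells no collagen gene was called, while the fitted values of the type I and X-linked type IV chains had opposite signs. Of 18091 genes in the tumour table edgeR called 0, or 0% of genes, at an adjusted p under 0.05 in each of the 3 comparisons, and 38 of the 44 collagen genes were tested. NK1.1+ ILTCk had log2 fold changes against PD1+ Tconv of -2.77 ± 0.98 for Col1a1 (edgeR adjusted p = 0.285) and -3.13 ± 1.29 for Col1a2 (edgeR adjusted p = 0.340). The same contrast gave -1.41 ± 1.05 for Col3a1, -1.49 ± 0.82 for Col4a1, -1.67 ± 0.93 for Col4a2 and -1.83 ± 0.89 for Col18a1. It gave positive values of 1.52 ± 0.80 for Col9a1, 0.88 ± 0.50 for Col4a5 and 1.65 ± 0.87 for Col4a6. Of the 38, 15 were positive and 23 negative, with a median of -0.56 beside -0.04 over all genes. That median was -2.62 without NK1.1+ ILTCk replicate 1, -0.40 without NK1.1+ ILTCk replicate 2, -0.89 without PD1+ Tconv replicate 1 and -0.11 without PD1+ Tconv replicate 2, and -1.26 with limma-voom. At an unadjusted p under 0.05, 3 of 38 passed, against 14.3% of all genes. DESeq2 called 1 member, Col1a1 (log2 fold change -2.78, adjusted p = 0.0463), where it called 7.01% of all genes. The groups did not overlap for 4 members that were higher, Col4a5, Col4a6, Col9a1 and Col16a1, against 24.4% of all genes. They did not overlap for 6 that were lower, against 13.8%. With TMM-scaled CPM the second count was 11, against 20.8%.

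Against PD1+ Tconv, NK1.1- ILTCk had positive values for type IX and X-linked type IV chains and for several others, with no collagen gene called in the edgeR fit by group alone. The log2 fold changes were 2.81 ± 0.83 for Col9a1 (edgeR adjusted p = 0.361), 1.96 ± 0.51 for Col4a5 (edgeR adjusted p = 0.354), 2.29 ± 0.88 for Col4a6 and 1.80 ± 0.89 for Col9a2. The third type IX chain, Col9a3, had 0.96 ± 1.00. Col11a1 had 1.23 ± 0.56 and Col1a1 -1.35 ± 0.92. Col16a1 and Col17a1, named after their values were seen, had 1.96 ± 0.69 and 3.48 ± 1.35. Col17a1 is a collagen of the junctions that fix epithelial cells to the basement membrane. Of the 38, 23 were positive and 15 negative, with a median of 0.36 beside -0.04 over all genes. That median changed sign to -0.88 without NK1.1- ILTCk replicate 1, and was 0.77 without NK1.1- ILTCk replicate 2. It was -0.01 without PD1+ Tconv replicate 1 and 1.35 without PD1+ Tconv replicate 2. In 5 of 38 members the unadjusted p was under 0.05, against 11.9% of all genes. DESeq2 called Col9a1 (log2 fold change 2.83, adjusted p = 0.0203) and Col4a5 (1.96, adjusted p = 0.0191), where it called 3.91% of all genes. The groups did not overlap for 13 members that were higher, against 30.2% of all genes, and for 2 that were lower, Col1a1 and Col15a1, against 11.9%. Read as shares of the 38, the first is close to the background and the second is below it. With TMM-scaled CPM the counts were 10 and 4, against 23.1% and 22.7%.

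Between NK1.1+ and NK1.1- ILTCk edgeR called no collagen gene. Most fitted values were negative, and this leaning rested largely on NK1.1- ILTCk replicate 1. Of 38 members 33 had a negative log2 fold change, with a median of -1.15 beside 0.0079 over all genes. Without NK1.1- ILTCk replicate 1 the median was -0.09, with 18 positive and 20 negative. The values were -1.08 ± 0.49 for Col4a5, -1.15 ± 0.55 for Col11a1, -1.29 ± 0.79 for Col9a1, -2.13 ± 1.24 for Col1a2, -1.74 ± 1.06 for Col3a1 and -1.29 ± 0.82 for Col4a1. At an unadjusted p under 0.05 it was 1 of 38, against 3.94% of all genes, and DESeq2 called none, against 0.315%. No member was higher in both NK1.1+ libraries, against 10.7% of all genes, and 10 were lower, against 23.6%. These 3 comparisons share their libraries, so their values are not independent.

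**Figure D5:**
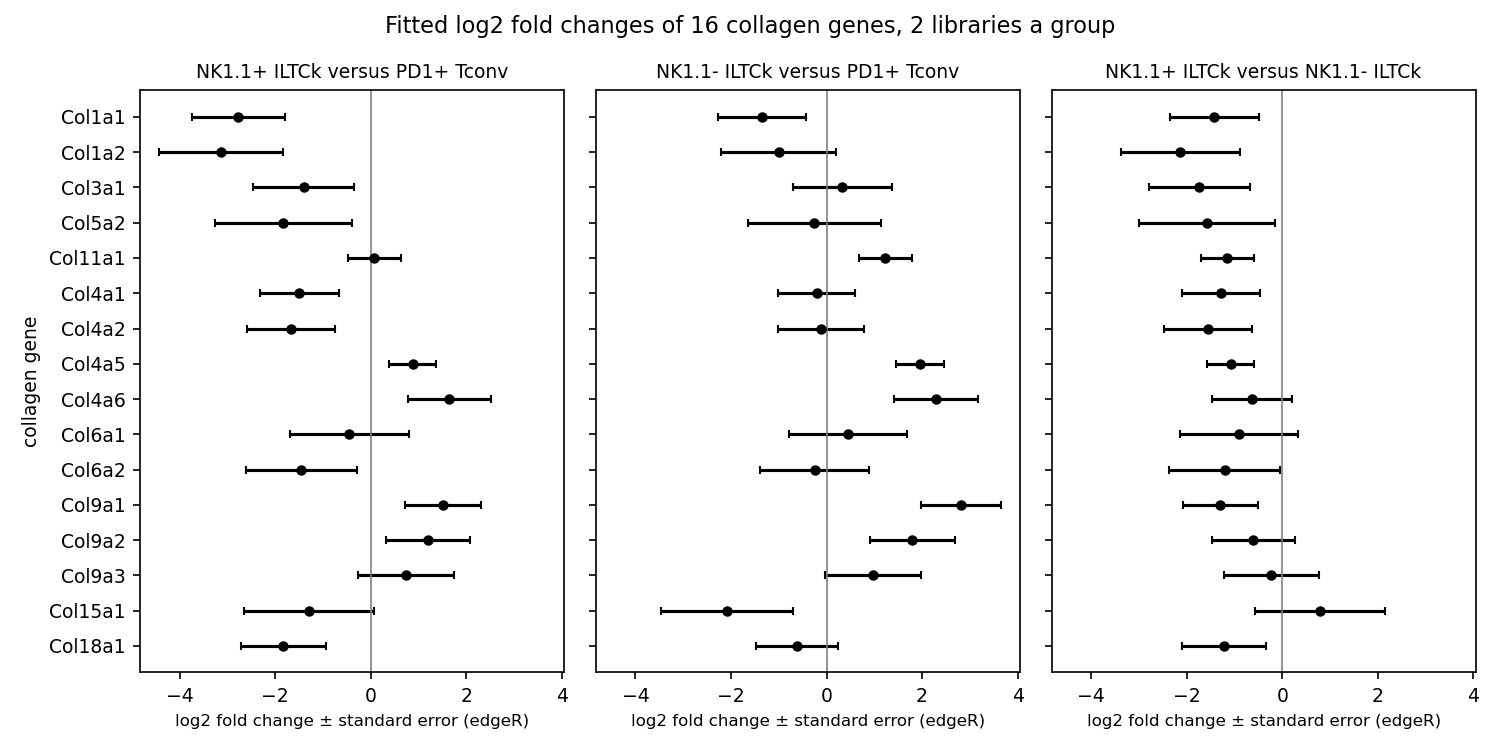
Fitted log2 fold changes with standard errors (edgeR, 2 libraries a group) of 16 collagen genes in the 3 tumour comparisons; the vertical line marks no difference. Col4a5, Col4a6 and Col9a1 lie to the right in both comparisons with PD1+ Tconv, Col1a1 and Col1a2 to the left, and none passed the test.

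Other matrix genes were described by lists. In the tumour comparisons edgeR called 0 of all 18091 genes, and so 0 genes of any list. In NK1.1+ ILTCk against PD1+ Tconv, DESeq2 called 10 of 10 macrophage markers and 4 of 12 collagen breakdown genes higher, beside 7.01% of all genes called. In NK1.1- ILTCk against PD1+ Tconv it called 4 of 15 basement membrane partners and 4 of 10 macrophage markers higher, beside 3.91% of all genes. Among 14 fibrillar matrix partners, the median log2 fold change of NK1.1+ against NK1.1- ILTCk was -1.40, with 14 of 14 negative. Sparc, a collagen-binding matrix protein, was at 427 and 141 CPM in NK1.1- ILTCk, 159.8 and 41.7 CPM in the NK1.1+ and 56.7 and 490.1 CPM in the PD1+ libraries. Sparc was thus high in the same libraries as Col4a1. Fibronectin, Fn1, was at 282 and 71.8, at 88.5 and 163, and at 3.81 and 58.0 CPM, and did not follow that order. Among 15 basement membrane partners, 10 had a positive and 5 a negative log2 fold change of NK1.1- ILTCk against PD1+ Tconv, with a median of 0.76. The fibrillar matrix partners had 12 positive and 2 negative values in that comparison, with a median of 1.30. In NK1.1+ against NK1.1- ILTCk the basement membrane partners had 2 positive and 13 negative values, with a median of -1.13. Serpinh1, the chaperone that folds procollagen, was at 65.3 and 55.3, at 31.9 and 53.4, and at 12.4 and 39.4 CPM in the tumour libraries and at most 0.299 CPM in the thymus. P4hb, a subunit of prolyl hydroxylase that every secretory cell uses, was at 365 CPM or more in each of the 10 libraries. In the thymus 10 genes of collagen modification, 7 of chaperones and secretion and 4 of processing were tested. Of these edgeR called 3 higher in ILTCkP, beside 4.71% of all genes called in either direction: Plod1 by 1.66 ± 0.32 (adjusted p = 0.0462), Sec24d by 1.81 ± 0.27 (adjusted p = 0.0218) and Fkbp10 by 2.75 ± 0.51 (adjusted p = 0.0428). These encode a lysyl hydroxylase, a coat protein of vesicles and a chaperone. The collagen uptake receptor Mrc2 was higher by 6.86 ± 0.76 (adjusted p = 0.0104) and the inhibitory collagen receptor Lair1 lower, with -2.93 ± 0.49 (adjusted p = 0.0334). Mrc2 was at 0.0707 and 0.0332 CPM in CD8SP, under 3 counts, so the size of its value depends on the prior count of the fit.

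Markers of other cell types differed between these libraries, some in the order of a collagen gene and some not, and their part in the collagen values was not tested. Mammary epithelial markers, all 10 detected in each tumour library, summed to 12261 and 6000.2 CPM in NK1.1- ILTCk, 6975 and 5905 CPM in the NK1.1+ and 2614 and 1689 CPM in the PD1+ libraries. Both PD1+ libraries were lowest in this sum, as for Col4a5, Col4a6 and Col9a1. Csn3 alone was at 8767 and 2271, 4768 and 3672, and 1751 and 317 CPM. Epcam, Krt8, Krt18, Csn3 and Wap were lowest in both PD1+ libraries. Krt19, Krt14, Krt5, Cdh1 and Csn2 were not, and Cdh1 was highest in PD1+ Tconv replicate 1 (245 CPM). Endothelial markers summed to 50.5 and 74.8, 54.6 and 33.4, and 22.7 and 248 CPM, with the highest value in PD1+ Tconv replicate 2. Pericyte and smooth muscle markers summed to 695 and 532, 253 and 85.0, and 112 and 363 CPM, led by Acta2. Salivary and lacrimal gland markers summed to 53620 and 10129, 1349.65 and 9582, and 1685 and 223639 CPM. The 2 highest of these were the libraries with the most Col1a2 and Col4a1, and 1 gene, the salivary protein Bpifa2, held most of the counts there. Fibroblast markers summed to 164 and 85.8, 184 and 139, and 39.1 and 34.5 CPM, but Gsn, which thymocytes also express, made up most of this. Both PD1+ libraries were lowest in these sums too, and the highest was NK1.1+ ILTCk replicate 1, which is the order of Gsn itself. The PD1+ libraries were also lowest for Pdgfra, but not for the rest of the list. Prrx1 (3.63 CPM) and Twist2 (0.544 CPM) were highest in PD1+ Tconv replicate 2. Mfap5 and Dpt were higher there than in NK1.1+ ILTCk replicate 2. Fbln1, another gene of the list, was highest in NK1.1- ILTCk replicate 1, at 12.6 CPM. It was lower in NK1.1+ ILTCk replicate 2 (0.718 CPM) than in PD1+ Tconv replicate 1 (1.71 CPM). The fibroblast marker Pdgfra was at 0.605 to 5.37 CPM in the tumour libraries, and Tcf21 had 0 counts in every library. Macrophage markers ran from 158 CPM in PD1+ Tconv replicate 1 to 15846 in NK1.1+ ILTCk replicate 2, the library where the most collagen genes were lowest. T cell markers were detected in each tumour library at 819 to 9291 CPM, lowest in NK1.1+ ILTCk replicate 2.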

How the data were processed

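The deposited values were whole-number read counts per gene symbol in 2 tables, described by the labels as raw counts, 4 thymic libraries in one and 6 tumour libraries in the other. Per the submitters' processing notes the authors used mm10 and DESeq (no version). Aligner, counter and strand setting: not given in the sources used here. The 4 single-cell samples were not analysed here.

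CPM was counts per 1000000 counts of a library. Each table was fitted whole with edgeR 4.0.16 (R 4.3.3; filterByExpr, TMM, robust glmQLFit), with Benjamini-Hochberg adjustment over all genes tested and a threshold of 0.05. DESeq2 1.42.0, limma-voom (limma 3.58.1), other scalings and filters, a replicate block and leaving out each library were alternatives. DESeq2's independent filtering was first run at its default of 0.1 and then set to 0.05, the call threshold, after those calls had been seen. Both settings called the same number of collagen genes. The scripts were tested on simulated data. Chain shares have exact Clopper-Pearson 95% intervals.

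The members and lists were chosen with earlier results of these data known. Genes given by library were Col1a1, Col1a2, Col3a1, Col4a1, Col4a2, Col6a1, Col15a1 and Col18a1, the 4 highest of each class in the tumour libraries, the 4 highest in the thymus and any edgeR call. From the other lists they were the 3 highest and any edgeR call. Some genes were picked after their values were seen. These were Krt5, Csn2 and the other mammary genes named, Pdgfra, Tcf21, Prrx1, Twist2, Mfap5, Dpt, Col5a3, Col16a1 and Col17a1.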

Additional observations from a re-analysis of the deposited data

How the results depend on the processing

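Direction was followed for a chosen set of collagen genes in each comparison, which left out Col9a3 and the genes of the other lists. For that set, 322 values under alternatives kept their direction and side of the threshold, 27 passed it where edgeR had not, and 3 reversed. The number of collagen genes called, 0 in each comparison, was the result that moved. In the thymus it was 2 with DESeq2, 2 with DESeq2 filtered at 0.1 (an alternative added after the data were seen), 4 with no filter on low counts, and 1 to 5 with 1 library left out, where 3.78% to 44.8% of all genes were called. In NK1.1+ ILTCk against PD1+ Tconv it was 1 with either DESeq2 setting and 2 with no filter, and in NK1.1- ILTCk against PD1+ Tconv it was 2 with either DESeq2 setting and 4 with no filter, which called 10.8%, 3.91% and 2.5% of all genes in these 3 comparisons. With the replicate number as a block it was 2 in the thymus (Col11a1 and Col23a1), 1 in NK1.1- ILTCk against PD1+ Tconv (Col9a1, log2 fold change 2.67, edgeR adjusted p = 0.0404) and 0 in the other 2 comparisons, beside 15.1%, 1.65% and, in NK1.1+ ILTCk against PD1+ Tconv, 4.17% of all genes. With the block the collagen median of that last comparison was -1.61, and in NK1.1- ILTCk against PD1+ Tconv 19 collagen genes were positive and 19 negative, where 23 and 15 were without it. Deviations of libraries with the same number correlated at 0.325 to 0.361 across 18091 genes of the tumour table and at 0.0918 across 14634 genes of the thymic table, but only the number links these libraries. Leaving out any 1 library gave 0 calls of a collagen gene in the tumour comparisons, though without NK1.1+ ILTCk replicate 1 there were 35 calls among all genes of NK1.1+ ILTCk against PD1+ Tconv. Col6a2 ranged in the thymus from -0.59 (without ILTCkP replicate 1) to 0.78, with -0.08 without CD8SP replicate 2, and Col9a1 in NK1.1+ against NK1.1- ILTCk from -2.05 to 0.24 (without NK1.1- ILTCk replicate 1). The cause of these changes was not tested.

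Class sums changed by construction where a member was moved or left out. Without its highest member the CD8SP mean was 3.40 CPM for fibrillar, 0.118 for basement membrane and 11.4 for other collagens, and the NK1.1+ ILTCk mean of other collagens was 114 CPM. With types XV and XVIII counted as basement membrane, that class had means of 2.04 CPM in CD8SP and 0.974 in ILTCkP, and the other collagens 19.2 CPM in CD8SP and 154.5 in NK1.1+ ILTCk. With TMM-scaled library sizes the CD8SP mean of other collagens was 19.9 CPM. With 2 libraries a group, thymic members near 3 counts cannot be compared.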
